A study of Mus musculus with 8 samples.

Results

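Paralogue choice in the BAF chromatin-remodelling complex was examined for 10 genes of 4 subunit families, Smarcd1, Smarcd2 and Smarcd3, Smarca2 and Smarca4, Dpf1, Dpf2 and Dpf3, and Actl6a and Actl6b, in RNA sequencing of hearts with pharyngeal mesoderm, each library from 1 mouse embryo of strain C57BL/6 at E8.75 (6 somites). There were 4 wild-type embryos and 4 Isl1-/- embryos (Isl1 knockout), and the labels give no other allele or treatment in either genotype. Isl1 is a LIM-homeodomain factor that marks progenitors of the second heart field, and the question here was how the mix of paralogues within each family differed when it was missing. The members were taken by gene symbol, with the transcript entry of highest summed read count standing for each gene, which gave 10 of 20701 symbols, or 18 of 31507 transcript entries. Of the 10 genes, 9 passed the filter on low counts and were tested among 14075 genes, and Actl6b did not pass.

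The BAF complex, the mammalian SWI/SNF chromatin remodeller, is a machine of many subunits that uses ATP to move or evict nucleosomes. Several of its positions can be filled by either of a few paralogous proteins, so that a cell type assembles its own version of the complex. The position taken by the BAF60 proteins is filled by Smarcd1 (BAF60a), Smarcd2 (BAF60b) or Smarcd3 (BAF60c), and Smarcd3 is known as the heart-enriched member that couples the complex to the heart factors Gata4, Nkx2-5 and Tbx5. The ATPase is either Smarca4 (Brg1) or Smarca2 (Brm), and the actin-related subunit is Actl6a in most cells and Actl6b in neurons. Of the double PHD finger subunits, only the Dpf family, Dpf1, Dpf2 and Dpf3, is counted here.

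Library totals over 1 entry per gene ran from 18916452 to 26153039 reads, with the lowest totals in knockout embryos 3 and 4. The targeted gene followed its labels, since Isl1 lay between 9.72 and 26.9 CPM (counts scaled to 1e6 reads) in the wild-type and between 1.78 and 2.40 CPM in the knockout (edgeR FDR 0.0041). Defining markers of the dissected tissue were present, with all 12 cardiomyocyte markers detected in both genotypes and 5 of 6 pharyngeal mesoderm markers passing the filter. Knockout embryo 2 is labelled total RNA and the 7 others polyA RNA, and wild-type embryo 3 had the lowest cardiomyocyte marker level of its genotype. Among the log2 fold changes of the members, leaving out any 1 embryo changed a call for Actl6a only. Where values are given embryo by embryo, they follow the order of embryos 1 to 4.

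The Smarcd paralogues are close enough in sequence to ask whether reads could be shared between them. The stretch of coding sequence below is the 90 bases of Smarcd3 with the closest match, without gaps, in both Smarcd1 and Smarcd2. Every read count in the family rests on telling such stretches apart, which is why the stretch is shown. It was read from GENCODE vM1 transcripts on NCBIM37, the assembly also called mm9, and covers coding bases 719 to 808 of Smarcd1, 767 to 856 of Smarcd2 and 623 to 712 of Smarcd3, 5′ to 3′ on the strand of the gene. Capitals mark the 24 positions at which the 3 genes are not all the same.
Smarcd1: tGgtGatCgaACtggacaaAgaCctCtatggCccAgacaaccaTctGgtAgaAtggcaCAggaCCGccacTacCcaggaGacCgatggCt
Smarcd2: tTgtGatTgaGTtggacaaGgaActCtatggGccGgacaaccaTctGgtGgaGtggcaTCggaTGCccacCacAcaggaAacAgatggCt
Smarcd3: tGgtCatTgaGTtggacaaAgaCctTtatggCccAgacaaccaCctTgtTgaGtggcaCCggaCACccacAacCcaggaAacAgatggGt

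Smarcd1 and Smarcd2 each matched Smarcd3 at 74 of these 90 bases. No run of identical bases between Smarcd3 and Smarcd1 exceeded 21 bases over the whole transcripts, and none between Smarcd3 and Smarcd2 exceeded 18 bases. Across all pairs within the 4 families the longest shared run was 26 bases, between Dpf1 and Dpf3. The treatment of reads that map to more than 1 place is not given in the sources used here.

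Smarcd3 was the only member past an FDR of 0.05, and it was lower in the knockout. Smarcd3 (NM_025891, chr5:24096636-24107830, minus strand, mm9) stood at 12.4, 12.2, 13.8 and 13.1 RPKM (reads per kilobase, scaled to 1e6 reads counted) in the wild-type. In the knockout it stood at 8.51, 8.16, 8.41 and 8.82 RPKM. The groups did not overlap, with 12.2 RPKM in the lowest wild-type and 8.82 RPKM in the highest knockout embryo. The underlying reads numbered 824 to 986 in wild-type and 457 to 616 in knockout embryos.

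The log2 fold change of Smarcd3 counts was -0.66 (SE 0.07, 95% interval -0.81 to -0.50, edgeR quasi-likelihood FDR 0.00279), which left 63.4% of the wild-type level. By p-value the gene ranked 16 of 14075. Against this, 0.973% of all genes tested passed the FDR, 0.867% lower and 0.107% higher in the knockout, and the median absolute log2 fold change over all genes was 0.13. Smarcd3 was also the only member beyond the thresholds that the study used (unadjusted p under 0.05 and a log2 fold change past 0.58 in size), which 3.93% of all genes met. It was likewise the only member whose CPM values did not overlap between genotypes, a pattern found in 10.3% of all genes. The summed level of 12 cardiomyocyte markers was lower in the same embryos, at 1711 to 2586 CPM in the knockout against 3182 to 4741 CPM in the wild-type, and in RNA from dissected tissue fewer cells of a type and less RNA per cell cannot be told apart.

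The level of Smarcd3 had a coefficient of variation, in CPM, of 4.79% over the wild-type and 2.32% over the knockout embryos. Counting alone would give 3.31% and 4.32%, so the spread over the knockout embryos was below its counting error. The log2 fold change ran from -0.67 to -0.62 as each embryo was left out in turn, and was -0.64 without knockout embryo 2 and -0.62 without wild-type embryo 3.

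**Figure D1:**
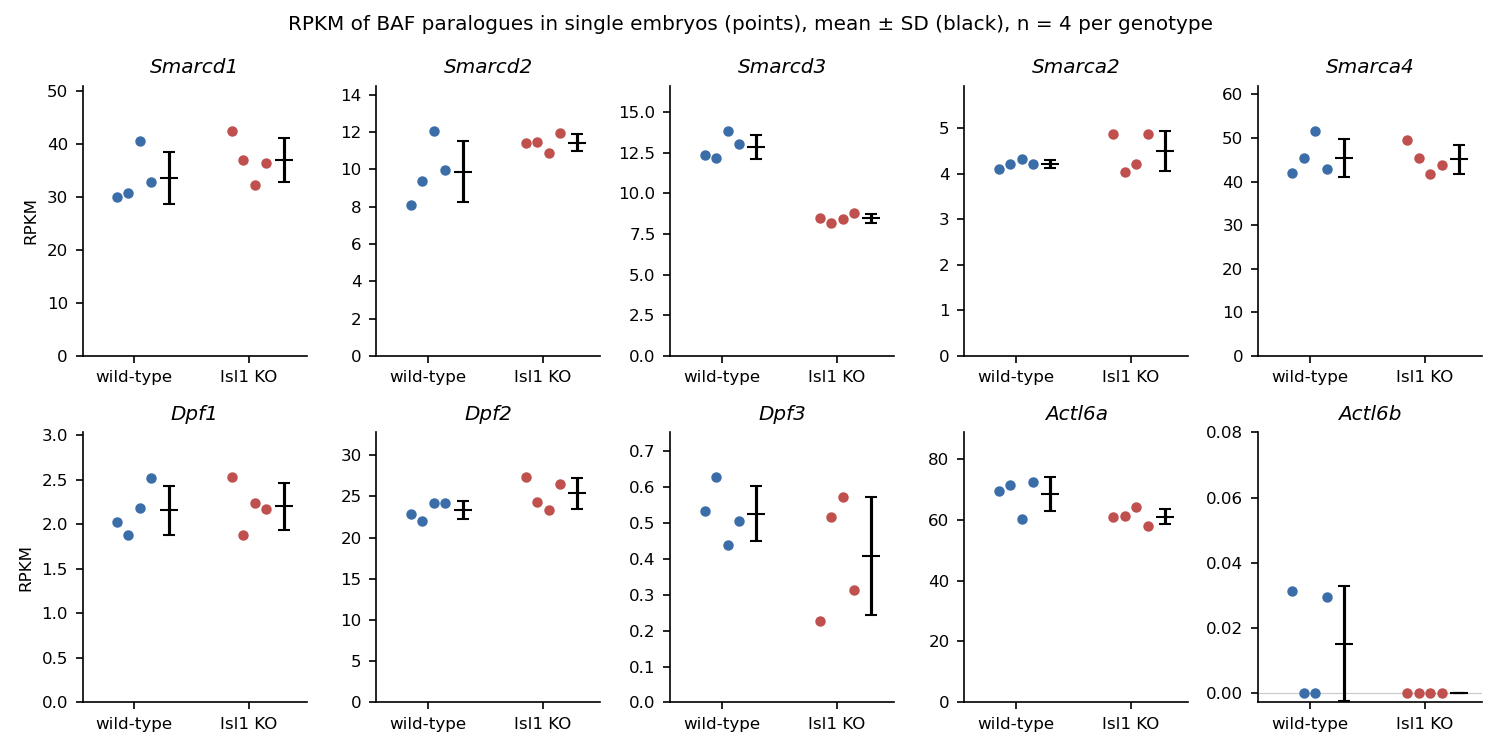
RPKM (vertical axes, each from its own zero) of the 10 paralogues in 4 wild-type (blue) and 4 Isl1 knockout (red) embryos, drawn in the order of embryos 1 to 4, with the mean and SD in black. The knockout points of Smarcd3, 8.16 to 8.82, all sit below the wild-type points, 12.2 to 13.8, while the points of every other member overlap between genotypes.

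Smarcd1, the broadly expressed member of the family, was the most abundant of the 3 per length of transcript. Smarcd1 (NM_031842, chr15:99532718-99544426, plus strand) stood at 30.0, 30.8, 40.6 and 32.9 RPKM in the wild-type and at 42.5, 36.9, 32.2 and 36.3 RPKM in the knockout. The ranges overlapped, with wild-type embryo 3 as high as the upper knockout embryos. Its log2 fold change was 0.08 (SE 0.11, 95% interval -0.15 to 0.32, edgeR FDR 0.721). Leaving out 1 embryo moved it between 0.017 without knockout embryo 1 and 0.19 without wild-type embryo 3 (edgeR FDR 0.215).

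Smarcd2, the paralogue best known from blood cell formation, stood at 8.10, 9.35, 12.0 and 9.98 RPKM in the wild-type and at 11.4, 11.5, 10.9 and 12.0 RPKM in the knockout. Wild-type embryo 3 lay above all knockout embryos and the other wild-type embryos below them. The log2 fold change of Smarcd2 (NM_001130187, chr11:106124493-106134286, minus strand) was 0.16 (SE 0.11, 95% interval -0.08 to 0.40, edgeR FDR 0.480). It was 0.26 without wild-type embryo 3 (unadjusted p = 0.0099, edgeR FDR 0.0993) and 0.080 without wild-type embryo 1.

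Summed Smarcd RPKM was 56.3 ± 7.17 in wild-type and 56.9 ± 4.44 in knockout embryos (SD, n = 4; exact two-sided permutation p = 0.8286). Single embryos set the sign and size of this difference of 0.596 RPKM, which was 3.998 without wild-type embryo 3 and 2.39 without knockout embryo 3, and -1.34, -0.743 and -1.23 without wild-type embryo 1, wild-type embryo 2 and knockout embryo 1. The mean of Smarcd3 fell by 4.39 RPKM (SE 0.406), while the means of Smarcd1 and Smarcd2 were 3.42 (SE 3.21) and 1.56 (SE 0.853) RPKM higher in the knockout, neither of them past the FDR with or without any 1 embryo.

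The make-up of the family did differ. Smarcd3 supplied 24.5%, 23.3%, 20.8% and 23.4% of Smarcd RPKM in the wild-type and 13.6%, 14.4%, 16.3% and 15.4% in knockout embryos. Every knockout embryo lay below every wild-type embryo. The mean share was 23.0% ± 1.55 in wild-type and 15.0% ± 1.17 in knockout embryos (SD, n = 4), a difference of -8.03 percentage points (SE 0.971, exact two-sided permutation p = 0.0286, the smallest p that 4 against 4 can give).

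Both other members made up more of the family in the knockout. The Smarcd1 share was 59.5% ± 1.06 in wild-type and 64.9% ± 2.41 in knockout embryos (exact permutation p = 0.0286), and the Smarcd2 share 17.5% ± 0.956 and 20.2% ± 1.30 (exact permutation p = 0.0286, n = 4 each). In both cases all knockout shares lay above all wild-type shares, but for Smarcd2 the margin was thin, 18.3% in the lowest knockout against 18.1% in the highest wild-type embryo. Shares of 1 family sum to 100%, so a lower Smarcd3 level by itself raises both other shares. These 3 tests are therefore not independent of each other. Taken as shares of reads, the Smarcd2 ranges overlapped (exact permutation p = 0.114).

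Ratios between pairs of paralogues do not depend on the family total. The Smarcd3 to Smarcd1 ratio of RPKM was 0.412, 0.395, 0.341 and 0.398 in wild-type and 0.200, 0.221, 0.261 and 0.243 in knockout embryos (exact permutation p = 0.0286, n = 4 each). The Smarcd3 to Smarcd2 ratio was 1.53, 1.30, 1.15 and 1.31 in wild-type and 0.746, 0.712, 0.772 and 0.738 in knockout embryos (exact permutation p = 0.0286). Smarcd3 was thus above Smarcd2 in each of the 4 wild-type embryos and below it in each of the 4 knockout embryos. The Smarcd2 to Smarcd1 ratio was 0.293 ± 0.0160 in wild-type and 0.311 ± 0.0308 in knockout embryos, with overlapping ranges (SD, n = 4; exact permutation p = 0.343).

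**Figure D2:**
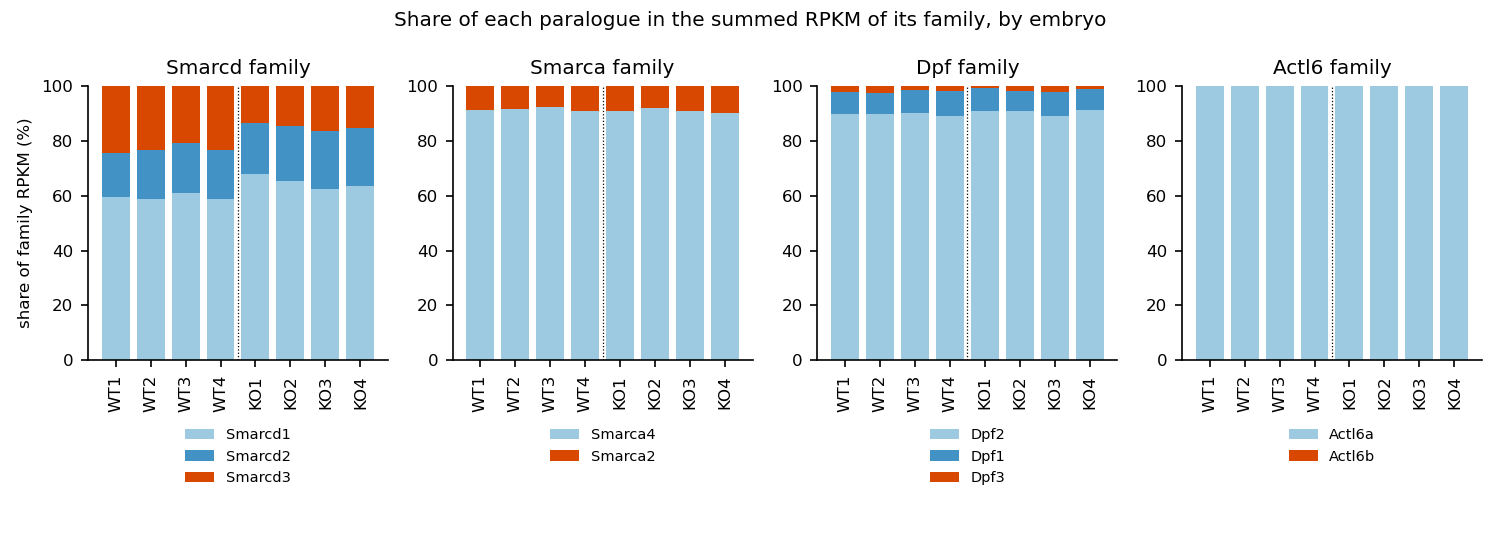
Share of each paralogue in the summed RPKM of its family (vertical axis, percent), one bar per embryo, wild-type (WT) left and Isl1 knockout (KO) right of the dotted line. The orange part of the Smarcd bars spans 20.8% to 24.5% in wild-type and 13.6% to 16.3% in knockout embryos, while the Smarca4 and Dpf2 parts overlap between genotypes.

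No difference in the mix of the catalytic subunits was detected. Smarca4 (NM_001174078, chr9:21420613-21508674, plus strand) stood at 42.1, 45.4, 51.6 and 42.8 RPKM in the wild-type and at 49.5, 45.5, 41.7 and 43.8 RPKM in the knockout. Wild-type embryo 3 was again the highest of its genotype, and the ranges overlapped. The log2 fold change was -0.07 (SE 0.08, 95% interval -0.25 to 0.11, edgeR FDR 0.705), and it ran from -0.11 without knockout embryo 1 to -0.0054 without wild-type embryo 3.

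Smarca2 (NM_011416, chr19:26679650-26852811, plus strand), the other ATPase, stood at 4.10, 4.22, 4.32 and 4.21 RPKM in wild-type and at 4.87, 4.04, 4.20 and 4.87 RPKM in the knockout. Knockout embryos 1 and 4 were the 2 highest of the 8, while knockout embryo 2 was the lowest. On the log2 scale the change was 0.04 (SE 0.08, 95% interval -0.14 to 0.21, edgeR FDR 0.846). Smarca4 supplied 91.5% ± 0.561 of the summed Smarca RPKM in wild-type and 90.9% ± 0.760 in knockout embryos (SD, n = 4; exact permutation p = 0.314).

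The Smarca2 value rests on the transcript chosen. Besides the entry of 5778 bases kept here, the table holds entries of 1951 bases for the same symbol, and these held 75.7% to 86.4% as many reads in 33.8% of the length. In GENCODE vM1 a short Smarca2 transcript begins at base 26822893 of chromosome 19, inside the gene, and shares 1688 of its 1962 bases with the full-length one. If coverage is even along each transcript, the full-length form stood at 1.79 ± 0.117 and 1.72 ± 0.0631 on the RPKM scale in wild-type and knockout embryos, and the short form at 8.30 ± 0.416 and 9.50 ± 1.52 (SD, n = 4). Neither form separated the genotypes (exact permutation p = 0.343 and 0.286). Set against the full-length form alone, with the short form left out of the sum, Smarca4 supplied 96.2% in wild-type and 96.3% in knockout embryos. With the densest entry in place of the kept one, it supplied 82.2% and 80.5%. The bases shared with the short form make up 29.0% of the full-length transcript.

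Within the Dpf family, whose double PHD fingers read acetylated histone tails, Dpf2 was the main form. Dpf2 (NM_001291078, chr19:5896516-5913010, minus strand) stood at 22.8, 22.0, 24.2 and 24.3 RPKM in wild-type and at 27.3, 24.4, 23.3 and 26.5 RPKM in the knockout, with overlapping ranges. Its log2 fold change was 0.06 (SE 0.06, 95% interval -0.07 to 0.20, edgeR FDR 0.612), from 0.033 without knockout embryo 1 to 0.10 without knockout embryo 3. Its share of Dpf RPKM was 89.7% ± 0.557 in wild-type and 90.6% ± 0.960 in knockout embryos (SD, n = 4; exact permutation p = 0.143).

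Dpf1, a form known from neurons, was the second member. Dpf1 (NM_013874, chr7:30088970-30102607, plus strand) stood at 2.03, 1.88, 2.19 and 2.52 RPKM in wild-type and at 2.53, 1.88, 2.24 and 2.17 RPKM in the knockout. The ranges were nearly the same, and the log2 fold change was -0.02 (SE 0.13, 95% interval -0.31 to 0.26, edgeR FDR 0.941), a sign that changed under some settings, with 0.013 under upper-quartile scaling. Its share was 8.27% ± 0.682 in wild-type and 7.87% ± 0.733 in knockout embryos (SD, n = 4; exact permutation p = 0.486).

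Dpf3, which is known from heart and skeletal muscle, was the least abundant of the 3 and the least precisely measured. Dpf3 (NM_001267625, chr12:84314732-84451882, minus strand) had 70, 78, 56 and 70 reads in wild-type and 30, 66, 57 and 33 reads in knockout embryos. These came to 0.533, 0.626, 0.439 and 0.505 RPKM in wild-type and 0.226, 0.518, 0.571 and 0.313 RPKM in knockout embryos. Knockout embryos 1 and 4 lay below all others, and knockout embryos 2 and 3 lay within the wild-type range. The coefficient of variation of CPM was 16.4% over the wild-type and 41.2% over the knockout embryos, against 12.1% and 14.7% from counting alone.

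The log2 fold change of Dpf3 was -0.43 (SE 0.30, 95% interval -1.09 to 0.23, edgeR FDR 0.484), an interval that holds both no change and the change of Smarcd3. It was -0.22 without knockout embryo 1 and -0.63 without knockout embryo 3, and -0.58 without knockout embryo 2, the library labelled total RNA. Its share of Dpf RPKM was 2.04% ± 0.393 in wild-type and 1.49% ± 0.682 in knockout embryos (SD, n = 4; exact permutation p = 0.257). The table holds entries of 3142, 1505 and 1502 bases for Dpf3 with almost the same reads, so that the shorter length raised the share to 4.14% and 3.01% without changing the test (exact permutation p = 0.257).

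The actin-related subunit was almost wholly Actl6a, which was also the most abundant of the 10 members per length. Actl6a (NM_019673, chr3:32607468-32625890, plus strand) stood at 69.5, 71.3, 60.3 and 72.3 RPKM in wild-type and at 60.7, 61.1, 64.2 and 58.0 RPKM in the knockout. Wild-type embryo 3 lay within the knockout range and the other wild-type embryos above it. The log2 fold change was -0.22 (SE 0.07, 95% interval -0.38 to -0.06, unadjusted p = 0.0118, edgeR FDR 0.169). An unadjusted p under 0.05 was found in 17.4% of all genes tested. Without wild-type embryo 3 the log2 fold change was -0.28 (edgeR FDR 0.0346), and the number of all genes past the FDR rose from 137 to 490 with that embryo left out.

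Actl6b, the neuronal form (NM_031404, chr5:137994745-138010810, plus strand), had 2 reads each in wild-type embryos 1 and 4 and 0 reads in the 6 other embryos. A count of 0 allows up to 3 reads, which is 0.0544% to 0.0790% of the Actl6 reads in these 6 embryos, for counting error only. The Actl6a share was therefore 100% in 6 embryos and 99.96% in the other 2, and no fold was computed for Actl6b.

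Ordered by mean RPKM in the wild-type, the members ran Actl6a, Smarca4, Smarcd1, Dpf2, Smarcd3, Smarcd2, Smarca2, Dpf1, Dpf3 and Actl6b. For the entries kept, the ranges of neighbours in this order did not overlap in any pair among the 4 wild-type embryos. The gap between Smarcd3, at 12.2 or more, and Smarcd2, at 12.0 or less, was small. With its entry of 2375 bases Smarcd2 ran from 9.17 to 13.7 RPKM in wild-type, which overlaps Smarcd3. A Smarca2 entry of 1951 bases averaged 9.85 RPKM in wild-type, near the kept Smarcd2 entry at 9.87. In the knockout the order was the same except that Smarcd2 stood above Smarcd3. There Smarca4 and Smarcd1 were the only neighbours whose ranges overlapped, 41.7 to 49.5 against 32.2 to 42.5 RPKM.

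The other subunits of the complex were then set beside the paralogues. Of 20 other subunits, 18 passed the filter, and their median log2 fold change was -0.03 against 0.01 over all genes tested. None passed an edgeR FDR of 0.05 and 2 had an unadjusted p under 0.05, against 0.973% and 17.4% of all genes. These 2 were Smarce1 (BAF57, a DNA-binding subunit of the canonical and PBAF forms) at -0.18 (SE 0.05, edgeR FDR 0.109) and Ss18, a subunit of the canonical complex, at -0.19 (SE 0.05, edgeR FDR 0.109). Both had lower values in all 4 knockout than in all 4 wild-type embryos. Such non-overlap, in either direction, was found in these 2 of the 18 subunits and in 10.3% of all genes. DESeq2, which called 712 of all genes, placed both past the threshold, with FDR 0.0352 and 0.0495, while limma on log2 RPKM called none.

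By role, the 7 core subunits found in more than 1 form of the complex held log2 fold changes from -0.18 to 0.10 and the 4 tested canonical subunits from -0.19 to 0.19. The 4 PBAF subunits, which define the polybromo form, lay from -0.06 to -0.01, with Pbrm1 the farthest from 0 at -0.06 (edgeR FDR 0.699). The 3 non-canonical subunits lay from -0.17 to 0.20, with Gltscr1 the farthest at 0.20 (edgeR FDR 0.369). Bcl11a and Bcl11b, canonical subunits known from blood and brain, did not pass the filter. Smarcd3 thus lay outside the range of all 18 other subunits tested. So did Dpf3 at -0.43 and Actl6a at -0.22, neither past the FDR with all embryos in the fit.

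**Figure D3:**
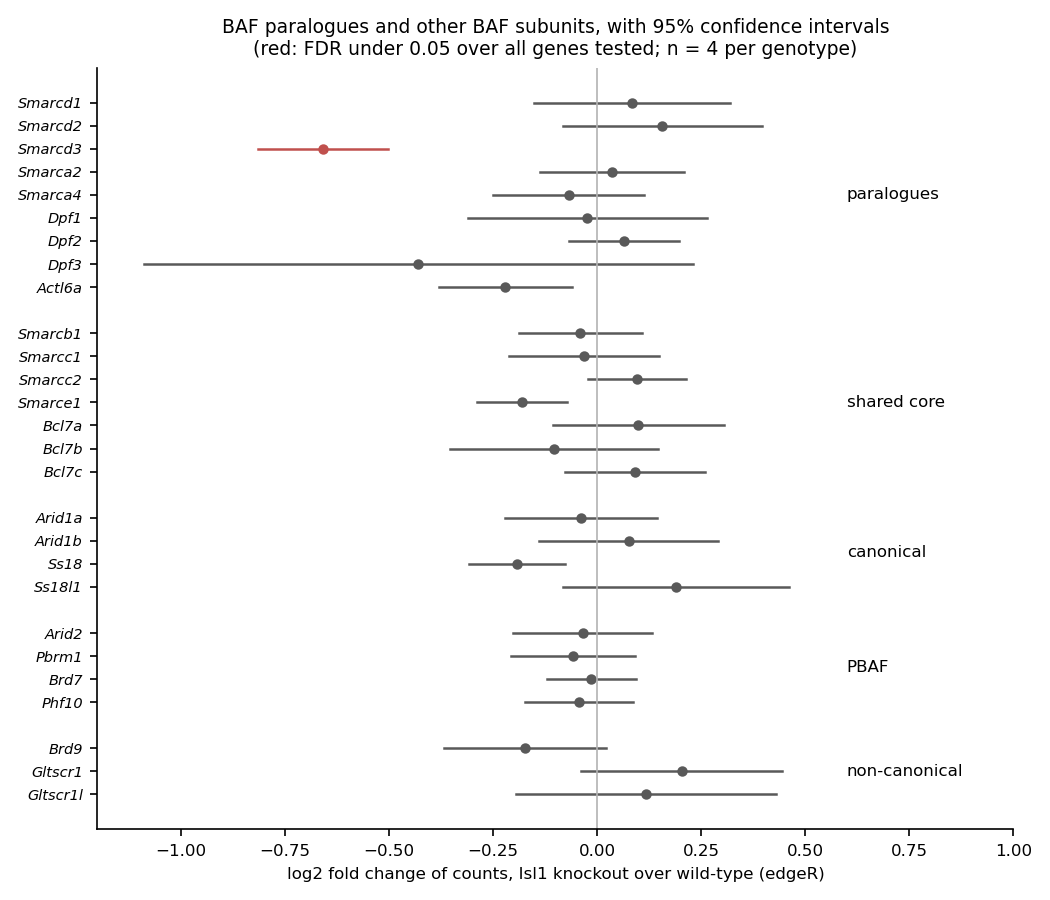
Log2 fold change of counts, Isl1 knockout over wild-type (horizontal axis), for the 9 tested paralogues and 18 other BAF subunits, with 95% confidence intervals from edgeR. The point of Smarcd3 at -0.66 (red) stands apart, and the widest interval, -1.09 to 0.23, belongs to Dpf3.

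ATPases of other remodelling families served as a further comparison. Of 17 tested, 0 passed an edgeR FDR of 0.05, 3 had an unadjusted p under 0.05 (1 higher and 2 lower), against 0.973% and 17.4% of all genes, and the list's median was 0.02 on the log2 scale. The farthest from 0 was Chd6, a chromodomain helicase, at 0.29 (SE 0.07, edgeR FDR 0.0930). DESeq2 called Chd6 alone and limma called none.

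Of the 3 transcription factors that BAF60c is known to work with, 2 passed the FDR, both lower in the knockout. Of all genes tested, 0.867% did so. Tbx5 stood at 28.5 CPM in wild-type and 12.7 CPM in knockout embryos on average, a log2 fold change of -1.17 (SE 0.13, edgeR FDR 0.00304). Nkx2-5 stood at 25.4 and 9.58 CPM, a log2 fold change of -1.40 (SE 0.13, edgeR FDR 0.00186). Gata4 stood at 98.7 and 63.9 CPM, with a log2 fold change of -0.63 (SE 0.13, edgeR FDR 0.0532), close in size to that of Smarcd3 and just short of the threshold. For each of the 3 factors all knockout values lay below all wild-type values. Groups did not overlap, in either direction, in 10.3% of all genes. DESeq2 called all 3 factors, among 712 of all genes.

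The cardiomyocyte markers were then taken singly. Of the 12 markers, 10 were past an edgeR FDR of 0.05, all lower in the knockout, against 0.867% of all genes. None was at 0. These 10 were the myosin genes Myh6, Myh7, Myl4 and Myl7, the troponins Tnnt2, Tnni1 and Tnnc1, the actin Actc1, the actin crosslinker Actn2 and the calcium release channel Ryr2. Over the list, the log2 fold changes ran from -1.38 to -0.65 with a median of -0.98, so the value of Smarcd3, -0.66, lay at the weak end of their range. DESeq2 called 11 of the 12, among 712 of all genes. With limma 5 were called, among 111 of all genes on log2(RPKM + 0.1) and 119 on log2(RPKM + 1). Without wild-type embryo 3 edgeR called all 12, among 490 of all genes. Summed over the list, wild-type embryos 1 to 4 held 4741, 4667, 3182 and 4351 CPM, and knockout embryos 1 to 4 held 2264, 1711, 2586 and 1980 CPM. The part of the cardiomyocyte markers in the Smarcd3 difference was not tested.

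Set embryo by embryo, the level and the share of Smarcd3 ordered the wild-type differently. Wild-type embryo 3 had the lowest cardiomyocyte marker sum and the lowest Smarcd3 share of its genotype, 20.8%, but the highest Smarcd3 level, 13.8 RPKM. Its low share went with its Smarcd1 level, 40.6 RPKM against 30.0 to 32.9 RPKM in the other wild-type embryos. Its Smarcd2 level was also the highest of its genotype, 12.0 RPKM against 8.10 to 9.98 RPKM. Among knockout embryos, embryo 3 had the highest marker sum and the highest Smarcd3 share, 16.3%, while its Smarcd3 level of 8.41 RPKM was in the middle of the group.

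**Figure D4:**
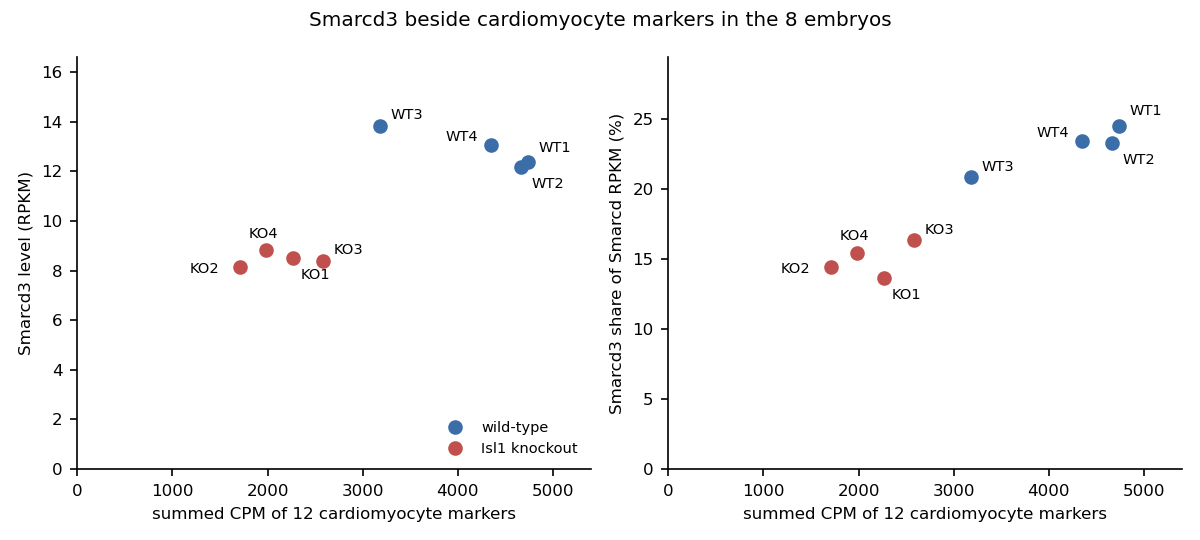
Smarcd3 level (left, RPKM) and Smarcd3 share of Smarcd RPKM (right, percent) against the summed CPM of 12 cardiomyocyte markers in the 8 embryos, wild-type (WT) in blue and Isl1 knockout (KO) in red. The genotypes separate on both axes, and wild-type embryo 3 at 3182 CPM lies nearest to the knockout embryos on the marker axis while its Smarcd3 level is the highest.

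Markers of other cell types that the dissection could hold were examined in the same way. In each of the lists for neural progenitors, neurons, neural crest, somite, endoderm, endothelium and erythroid cells, 0 genes passed an edgeR FDR of 0.05, and of the 36 genes tested in them 2 were lower and 1 was higher at an unadjusted p under 0.05, or 8.33% against 17.4% of all genes. Farthest from 0 in each list were Hes5 at 1.18, Neurog2 at 0.43, Sox10 at 0.49, Myf5 at 0.75, Foxa2 at 0.15, Emcn at -0.42 and Alas2 at 0.60 on the log2 scale, none past the FDR. DESeq2 called Hes5 in these lists and limma called none. Summed neuronal markers, which bear on the neuronal forms Dpf1 and Actl6b, ran from 61.0 to 70.1 CPM in wild-type and from 53.5 to 69.7 CPM in knockout embryos. Of the pharyngeal mesoderm markers Isl1 alone passed the FDR. Without wild-type embryo 3, edgeR also called Tbx1, of pharyngeal mesoderm, as higher and Emcn, of endothelium, as lower in the knockout. With all embryos Tbx1 stood at 0.98 (edgeR FDR 0.248).

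Across the 8 embryos, the genes whose log2 CPM followed Smarcd3 most closely were Cacna1d, Amph, Atp2a2, Esrrg and Pdlim5, with Pearson r of 0.988, 0.988, 0.987, 0.987 and 0.985. Cacna1d encodes a voltage-gated calcium channel, Atp2a2 the calcium pump of the sarcoplasmic reticulum, and Pdlim5 a protein of the muscle Z-disc. All 5 were lower in the knockout, with log2 fold changes from -1.65 to -0.39. The points share the genotype difference, and after each genotype was centred on its own mean the correlations were 0.667, 0.729, 0.441, 0.724 and 0.495 in the same order. They were picked as the highest of all genes tested and are given as a description.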

How the data were processed

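Total RNA of single embryos (100 ng) was made into libraries and sequenced on a NextSeq500. The authors mapped reads to mm9 with STAR, allowing introns of 20 to 500000 bases, and counted them over RefSeq exons with HOMER, so the deposited values are raw read counts per transcript entry, on both strands and without adjustment. The authors made the deposited RPKM values with edgeR. They divide by the reads of all 31507 entries, which count a read once for every transcript that holds it, and values recomputed from the counts were within 0.000492 of them. Per the file headers, a length in bases and the DESeq2 columns of the authors (mean signal, log2 fold change and its error, score, p-value and adjusted p-value) are also deposited, and the DESeq2 columns were not used. Tool versions are not given in the sources used here.

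The entry with the highest summed count stood for each symbol. Counts were filtered with filterByExpr, scaled by TMM and fitted by quasi-likelihood with genotype as the single term in edgeR 4.0.16 (R 4.3.3), with Benjamini-Hochberg adjustment over 14075 genes. CPM are TMM-scaled. A share is the RPKM of a member over the sum of its family. Shares, sums and ratios were compared by exact two-sided permutation tests over embryos, with 8 distinct tests of shares and no adjustment, since 0.0286 is the smallest p possible. Embryos are separate animals, and genotypes and numbers come from the titles, to which columns headed CTR were matched as wild-type by number. The members, gene lists and tests were chosen with earlier results of these data known. Named genes were the members, in each other list every gene past the FDR or else the one farthest from 0, and the 5 genes most correlated with Smarcd3. Gata4, Ss18, Smarce1, Tbx1, Bcl11a and Bcl11b were named after their values were seen where they fall outside this rule. Alternatives were DESeq2 1.42.0, limma 3.58.1 on log2(RPKM + 0.1) and log2(RPKM + 1), other scalings, filters and transcript choices, a replicate block and leaving out each embryo. The fit was also run on simulated counts, and no statement here rests on that run. Without molecular identifiers, counting errors given here do not cover amplification.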

Additional observations from a re-analysis of the deposited data

Results flagged for a closer look

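Samples that lay far from the rest of their group were sought in 36 groups of 4 embryos, of which chance picks about 1 in 20 groups. Smarcd1 in wild-type embryo 3, at 218 CPM (217.983), stood well over its group, in which the next lay at 164 to 173 CPM, with a gap of 0.835 of the group's range. The Smarcd2 share of Smarcd RPKM in wild-type embryo 1, at 16.05% (16.0491), lay below the other wild-type embryos at 17.8% to 18.1%, with a gap of 0.867 of the range.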

How the results depend on the processing

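Of 332 recomputed values, 310 kept their direction and their side of the threshold or moved by less than the spread between embryos. The Smarcd3 log2 fold change ran from -0.67 to -0.55, with an FDR of at most 0.0268 (edgeR, limma and DESeq2), and its share difference from -8.75 to -7.53 percentage points as each embryo was left out and from -8.03 to -5.35 with other transcript entries or reads in place of RPKM. The number of all genes past the FDR was 137, but 712 by DESeq2 and 70 to 490 as embryos were left out, 490 without wild-type embryo 3, 70 and 81 without knockout embryos 4 and 1, and 73, 85 and 85 without wild-type embryos 1, 2 and 4. Members past the FDR numbered 1 to 2, the second being Actl6a without wild-type embryo 3. With limma on log2(RPKM + 1), 0 members passed the thresholds of the study, because Smarcd3 stood at -0.55 on that scale, and DESeq2 called 2 other BAF subunits where edgeR called 0. The Smarcd2 share difference of 2.68 points was 1.95 on reads (exact permutation p = 0.114) and 2.90 with the densest entries (exact permutation p = 0.0571, a choice made after seeing the data). The Smarca4 share difference turned from -0.55 to 0.12 points with the full-length density of Smarca2 alone, the short form left out. That choice was also made after seeing the data. The Dpf1 log2 fold change was 0.031 and 0.022 with limma (pseudocounts 0.1 and 1) and 0.013 with upper-quartile scaling, and ran from -0.091 to 0.046 as embryos were left out, with 0.044 without knockout embryo 2 and 0.046 without wild-type embryo 4. That of Smarca2 ran from -0.0011 to 0.082, with -0.00061 and -0.0011 without knockout embryos 1 and 4. The cause of these shifts was not tested. Embryos of the same number deviated from their genotype means with correlations of 0.109, 0.212, 0.0863 and 0.507. In no same-numbered pair was each embryo the best match of the other, so the numbers were not taken as pairs. With the replicate number as a block, 76 genes passed the FDR and Smarcd3 stayed at -0.66 (edgeR FDR 0.0268), while the share differences of same-numbered embryos could not go below an exact sign-flip permutation p of 0.125. The summed Smarcd RPKM difference ran from -1.34 to 3.998 as embryos were left out, and the share differences of Smarca4, Dpf1 and Dpf3 from -0.856 to -0.239, from -0.626 to -0.0685 and from -0.781 to -0.302 points. Actl6b, at 0 to 2 reads, lay under the floor of 3 reads.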
